A study of Mus musculus with 4 samples.

Results

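The RNA levels of 9 genes of the Rgs family, the regulators of G-protein signaling, were described in sorted mouse hematopoietic stem cells (HSCs) with and without the transcription factor Gfi1b. The 9 members were Rgs1, Rgs2, Rgs3, Rgs10, Rgs12, Rgs14, Rgs16, Rgs18 and Rgs19, which were matched by gene symbol and Ensembl identifier among 37140 genes counted in all 4 libraries. They are a listed choice from the family, and 12 other Rgs genes are given beside them. RNA-seq was done on 4 libraries, 1 for each genotype and population, from C57Bl6 mice. By the methods, HSCs were sorted as Lin- cKit+ Sca1+ Cd48- CD150+ cells, and CD41low/CD9low HSCs as HSCs with low surface CD41 and CD9. The paper's results text instead calls the former CD41+/CD9+ HSCs. Whether the HSC libraries included CD41low/CD9low cells is thus given in different ways. Both populations came from the marrow of tibiae, femora and humeri pooled over several mice before sorting. The Gfi1b KO libraries came from Rosa-Cre Gfi1b fl/fl mice given tamoxifen before harvest. The methods describe the WT control as Rosa-Cre Gfi1b wt/fl mice that were given tamoxifen as well, whereas the design text of the series speaks of floxed mice with or without ROSA-Cre, so that the Cre status of the WT mice is given in different ways. Cre from the Rosa locus is active in all cell types, and the deletion was therefore not limited to HSCs.

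RGS proteins bind activated G protein alpha subunits and speed up their hydrolysis of GTP, which ends the signal of a G-protein-coupled receptor. Such receptors guide HSCs and leukocytes along chemokines and lipids and activate platelets through thrombin and other agonists. The family is divided by sequence into the R4 group of mostly small proteins (here Rgs1, Rgs2, Rgs3, Rgs16 and Rgs18), the R12 group (Rgs10, Rgs12 and Rgs14), the RZ group (Rgs19) and the R7 group (Rgs6, Rgs7, Rgs9 and Rgs11). Rgs18 is abundant in platelets and megakaryocytes, and it has been described as a target of Gfi1b in megakaryocytes. Rgs1 and Rgs2 are known as rapidly inducible genes in leukocytes, and Rgs1 dampens chemokine receptor signals in lymphocytes.

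The coding sequences of the members show what the family shares. Below is a stretch of 60 bases from the RGS domain of each member, placed against the others without gaps and taken from the reference coding sequence of GRCm38, with the R4 members first. In these R4 members, capitals mark the 35 of 60 bases that all 5 share.
Rgs1: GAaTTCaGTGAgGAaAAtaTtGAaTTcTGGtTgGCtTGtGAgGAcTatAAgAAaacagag
Rgs2: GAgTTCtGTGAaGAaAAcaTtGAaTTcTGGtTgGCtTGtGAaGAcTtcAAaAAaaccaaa
Rgs3: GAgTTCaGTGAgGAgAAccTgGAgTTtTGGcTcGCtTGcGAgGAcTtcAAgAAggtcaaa
Rgs16: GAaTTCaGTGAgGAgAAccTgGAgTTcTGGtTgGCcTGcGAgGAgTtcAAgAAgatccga
Rgs18: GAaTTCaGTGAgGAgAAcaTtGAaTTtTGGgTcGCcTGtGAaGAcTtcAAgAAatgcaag
Rgs10: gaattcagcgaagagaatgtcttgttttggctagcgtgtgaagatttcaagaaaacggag
Rgs12: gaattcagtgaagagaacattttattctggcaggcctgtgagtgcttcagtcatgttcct
Rgs14: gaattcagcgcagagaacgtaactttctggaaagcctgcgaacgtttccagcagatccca
Rgs19: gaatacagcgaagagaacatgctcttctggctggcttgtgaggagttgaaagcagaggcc
Against Rgs1, 81.7% of these bases were identical in Rgs2, 78.3% in Rgs18, 73.3% in Rgs16 and 70.0% in Rgs3. The share was 71.7% in Rgs10, 65.0% in Rgs19, 63.3% in Rgs12 and 51.7% in Rgs14. Over the whole coding sequences, the longest run of identical bases in any of the 36 pairs was 23 bases. Rgs1 and Rgs2 shared attgaattctggttggcttgtga, and Rgs3 and Rgs16 shared ttcagtgaggagaacctggagtt. A median pair shared a run of 11.5 bases. No coding stretch of more than 23 bases was thus identical between members, which bears on reads being assigned to 1 of them.

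Gene counts per library summed to 50781007 in WT HSCs, 41690708 in KO HSCs, 12732079 in WT CD41low/CD9low HSCs and 19123185 in KO CD41low/CD9low HSCs. A count of 3, used as the floor of detection, equals 0.059 to 0.236 CPM (counts scaled to library size). The Gfi1b gene, the target of the deletion, had 9256, 49910, 611 and 9741 counts in the same order. Its KO/WT ratio was thus 6.66 in HSCs and 10.6 in CD41low/CD9low HSCs, which does not show the deletion, because a count over the whole gene does not separate the floxed exons from the rest. The paper itself reports that the floxed exons were not expressed in MKs (megakaryocytes) and HSCs after deletion. WT and KO are used below as the libraries are labelled. All 15 HSC markers reached 10 counts in at least 1 library of each population. Kit was at 369, 396, 300 and 377 TPM (a level corrected for gene length and depth). Itga2b, which encodes CD41, had 334, 434, 64.8 and 99.9 TPM, and Cd9 had 302, 310, 138 and 173 TPM, so that both genes were lower in the cells sorted for low CD41 and CD9.

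Rgs18 was the highest of the 9 members in every library. It stood at 505 TPM in WT HSCs, 468 TPM in KO HSCs, 189 TPM in WT CD41low/CD9low HSCs and 205 TPM in KO CD41low/CD9low HSCs. It exceeded 99.5% of all genes in WT HSCs and 98.8% in WT CD41low/CD9low HSCs. Rgs1 followed in WT HSCs with 199 TPM, and had 97.9 TPM in KO HSCs, 56.7 TPM in WT and 46.8 TPM in KO CD41low/CD9low HSCs. Rgs2, which preferentially curbs signals of the Gq class, had 132, 65.0, 22.8 and 24.8 TPM in the same order. These 3 genes gave 85.7% of the members' summed TPM in WT HSCs, 77.3% in KO HSCs, 68.5% in WT and 68.0% in KO CD41low/CD9low HSCs. The sum itself was 976, 816, 392 and 406 TPM.

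Rgs19, Rgs12 and Rgs14 formed a middle group, each within a narrow range over the 4 libraries. Rgs19, also known as GAIP, had 58.3, 73.8, 58.4 and 67.0 TPM in the order WT HSCs, KO HSCs, WT and KO CD41low/CD9low HSCs. Rgs12, a large protein with additional domains, had 30.6, 30.3, 26.2 and 29.1 TPM. Rgs14, which also binds inactive alpha subunits through a GoLoco motif, had 27.4, 22.8, 26.6 and 27.2 TPM. In WT CD41low/CD9low HSCs the counting intervals of Rgs19 (53.9 to 63.1 TPM) and Rgs1 (54.2 to 59.3 TPM) overlapped, as did those of Rgs14 (24.4 to 28.9 TPM) and Rgs12 (24.7 to 27.8 TPM), so that the order within these neighbours was not resolved there. Rgs10, one of the smallest RGS proteins, had the widest range of the members other than Rgs16, with 20.0, 52.8, 6.65 and 2.03 TPM. Rgs3 was low, with 3.45, 5.36, 4.4 and 4.57 TPM. Rgs16 was near the floor, with 5, 4, 13 and 0 counts, and a count of 0 in KO CD41low/CD9low HSCs allows up to 0.157 CPM. With 1 library each, no spread over samples could be given, and the intervals are exact 95% intervals for counting error only. In bulk RNA, fewer cells that express a gene and less RNA per cell cannot be told apart.

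**Figure D1:**
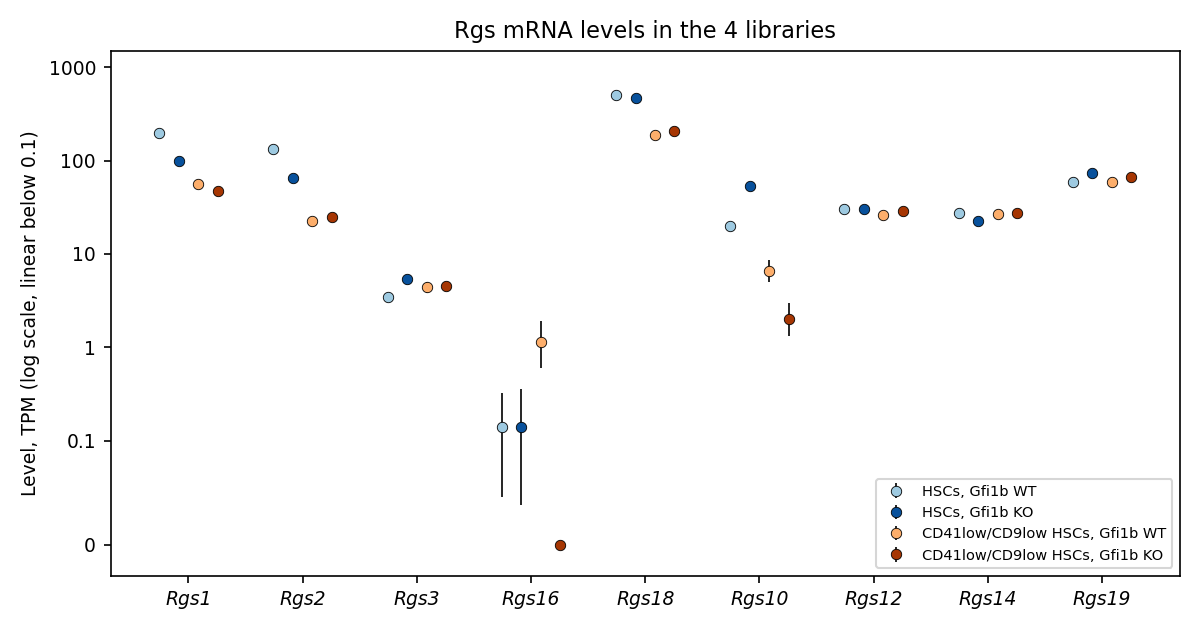
Level of each of the 9 Rgs members in TPM (vertical axis, linear near 0 and logarithmic above) in the 4 libraries, with exact 95% counting intervals as bars. Rgs18 is the highest member in each library (505, 468, 189 and 205 TPM), whereas Rgs10 spans 2.03 to 52.8 TPM.

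The comparison of KO with WT HSCs asks which Rgs genes differ after loss of Gfi1b. In HSCs, Rgs1 and Rgs2 were lower and Rgs10 and Rgs3 higher in the KO library, while Rgs18, Rgs12, Rgs14 and Rgs19 stayed within the cutoffs. Ratios are KO over WT of counts divided by median-of-ratios size factors, and the study's cutoffs of above 1.5 (up) and below 0.6 (down) were applied to genes with at least 10 counts in either library. No test of genotype is possible within a population, since each side is 1 library. Rgs1 went from 21136 counts in WT to 8277 in KO, with a ratio of 0.483 (95% interval 0.471 to 0.496). Rgs2 had 7282 and 2867 counts, with a ratio of 0.486 (0.465 to 0.507). These were nearly the same 2.07-fold and 2.06-fold lower values for both of these inducible genes. Rgs10 went from 523 to 1099 counts, a ratio of 2.59 (2.33 to 2.88), higher than the ratios of 95.1% of all genes. Rgs3 went from 568 to 705 counts, and its ratio of 1.53 (1.37 to 1.71) lay just above the cutoff with an interval that includes it.

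The remaining members were within the cutoffs in HSCs. Rgs18, the reported Gfi1b target, went from 15658 to 11567 counts, a ratio of 0.912 (0.890 to 0.934). Its ratio was thus close to 1 and exceeded the ratios of 37.0% of all genes. Rgs12 was at 0.976 (0.931 to 1.02), Rgs14 at 0.817 (0.759 to 0.881) and Rgs19 at 1.25 (1.17 to 1.33). Rgs16, with 5 and 4 counts, was under the count minimum. In all, 2 of 8 members past the minimum were up and 2 were down, against 14.1% up and 10.3% down among 15910 genes, or 24.4% past either cutoff. The median log2 ratio of the members was -0.08, against 0.00 for all genes tested.

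**Figure D2:**
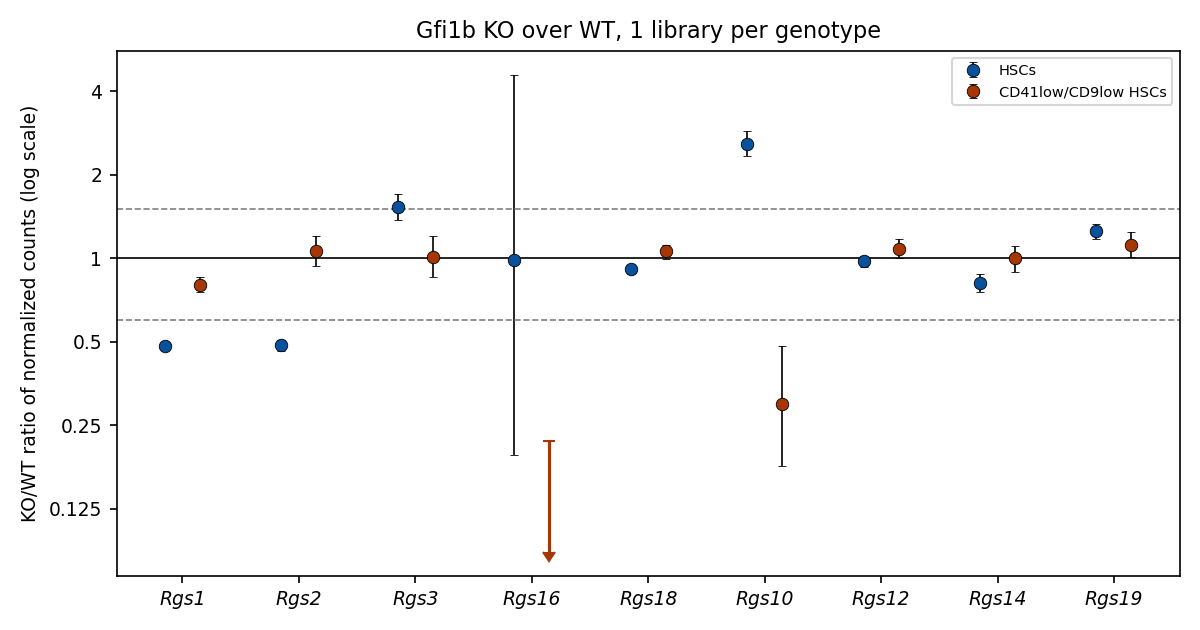
KO/WT ratio of each Rgs member (log axis) in HSCs and in CD41low/CD9low HSCs, with exact 95% counting intervals as bars and dashed lines at the cutoffs of 1.5 and 0.6. In HSCs Rgs1 (0.483) and Rgs2 (0.486) lie below and Rgs10 (2.59) and Rgs3 (1.53) above the cutoffs, whereas in CD41low/CD9low HSCs Rgs10 (0.298) lies below, as does Rgs16, drawn as an arrow because it had 13 counts in WT and 0 in KO.

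In CD41low/CD9low HSCs the members' ratios were close to 1, apart from Rgs10 and Rgs16. Rgs18 had 1887 counts in WT and 2990 in the deeper KO library, a ratio of 1.06 (0.997 to 1.12). Rgs2 had 407 and 648 counts, a ratio of 1.06 (0.936 to 1.20). Rgs2 thus did not repeat here the 2.06-fold lower value of the HSC libraries. Rgs1 had 1938 and 2336 counts, with a ratio of 0.804 (0.756 to 0.854), which is lower in KO but within the cutoffs. Rgs3 was at 1.01 (0.855 to 1.20), Rgs12 at 1.08 (1.0 to 1.17), Rgs14 at 0.999 (0.896 to 1.11) and Rgs19 at 1.12 (1.01 to 1.24). Rgs10 had 56 counts in WT and 25 in KO, a ratio of 0.298 (0.178 to 0.485), so that it moved the other way from HSCs. Rgs16 had 13 and 0 counts, with a 95% interval of the ratio from 0 to 0.219. Set against a floor of 3 counts in the KO library this is at least 6.5-fold lower, but the interval allows a smaller difference, and the gene passed the count minimum only through WT. Thus 0 of 9 members were up and 2 were down, where 13.5% of 14844 genes were up and 12% down. The median log2 ratio was 0.02 for the members and 0.01 for all genes.

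The ratio of the KO/WT ratios, CD41low/CD9low HSCs over HSCs, set the populations against each other for the 8 members counted in both. It was 2.18 (1.92 to 2.49) for Rgs2, 1.66 (1.56 to 1.77) for Rgs1 and 0.115 (0.0708 to 0.186) for Rgs10. Rgs10 therefore differed by 8.71-fold between the populations, in opposite directions. Rgs3 was at 0.660 (0.541 to 0.805), Rgs14 at 1.22 (1.07 to 1.39), Rgs18 at 1.16 (1.09 to 1.23), Rgs12 at 1.11 (1.02 to 1.21) and Rgs19 at 0.899 (0.801 to 1.01). These intervals cover counting error only and do not test the genotype by population difference, for which there are no replicates. Among the 14144 genes counted in both populations, 56.7% had ratios on the same side of 1.

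A fit to all 4 libraries with population and genotype as terms (edgeR quasi-likelihood, Benjamini-Hochberg adjustment over 16262 genes, 1 residual degree of freedom) asked for a genotype difference common to both populations. Of the members, Rgs1 fell, by 0.69 on the log2 scale (SE 0.15, edgeR adjusted p = 0.00062). That is a common term for unlike ratios, 0.483 in HSCs and 0.804, within the cutoffs, in CD41low/CD9low HSCs. In this edgeR fit the spread was taken from all genes together, with no weight on a gene's own spread. With edgeR's filterByExpr the adjusted p of Rgs1 was 0.18, and with the bias-adjusted quasi-likelihood fit it was 0.11, so that this call was lost. Rgs2 had a log2 difference of -0.51 (SE 0.17), with an edgeR adjusted p = 0.087, and the other 7 members had adjusted p-values of 0.80 to 0.99. Rgs10 was among these with a log2 difference of 0.05, a common term for ratios of 2.59 in HSCs and 0.298 in CD41low/CD9low HSCs. It does not show that Rgs10 was unchanged. With the bias-adjusted fit the value was 1.01 (edgeR adjusted p = 0.25). None of the 9 was called higher by edgeR or DESeq2, and 2 members, Rgs1 and Rgs2, had an unadjusted edgeR p under 0.05. Over all genes, 1.62% were called higher and 1.19% lower. The shares were 0.319% and 0.115% with filterByExpr, 0.566% and 0.215% with the bias-adjusted fit, and 0.43% and 0.184% with DESeq2, in which Rgs1 was called lower (adjusted p = 0.049). The WT libraries of both populations may come from the same pool of mice, as may the KO libraries, and the p-values measure only the spread between these libraries.

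Rgs1, Rgs2, Rgs10 and Rgs18 were lower in CD41low/CD9low HSCs than in HSCs in both genotypes, and these 4 were called lower in the fit. As for genotype, this edgeR fit took the spread from all genes together, with the genotypes as the only repeats. The log2 difference was -1.14 (SE 0.15) for Rgs1, -1.65 (SE 0.18) for Rgs2, -2.77 (SE 0.38) for Rgs10 and -1.0 (SE 0.15) for Rgs18, with edgeR adjusted p-values of 7.9e-12, 7.6e-19, 4e-11 and 1.8e-09. With filterByExpr the adjusted p-values were 0.0016, 0.001, 0.01 and 0.00092. No member was called higher by edgeR or DESeq2, and Rgs14 alone had an unadjusted edgeR p under 0.05 in that direction (log2 difference 0.41). Of all genes, 13.7% were called lower and 9.11% higher. The shares were 11.6% and 7.41% with filterByExpr, 10.6% and 7.36% with the bias-adjusted fit, and 9.18% and 5.41% with DESeq2, and each of these called the same 4 members.

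Within WT, Rgs2 was 4.69-fold, Rgs1 2.86-fold, Rgs10 2.45-fold and Rgs18 2.18-fold higher in HSCs than in CD41low/CD9low HSCs. Within KO, the same genes were 2.12-fold, 1.70-fold, 21.1-fold and 1.85-fold higher. The gap between the populations was thus smaller in KO for Rgs2 and Rgs1, and larger for Rgs10. The ratio of CD41low/CD9low HSCs over HSCs was 1.05 in WT and 1.19 in KO for Rgs12, and 1.23 and 1.12 for Rgs19. For Rgs14 it was 1.19 and 1.47, and for Rgs3 1.57 and 1.05. Rgs16 was 9.91-fold (3.32 to 35.5) higher in WT CD41low/CD9low HSCs, on 13 counts against 5. The sort by CD41 and CD9, the depth and the set of genes listed in the counts all differed between the populations, and these cannot be told apart.

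**Figure D3:**
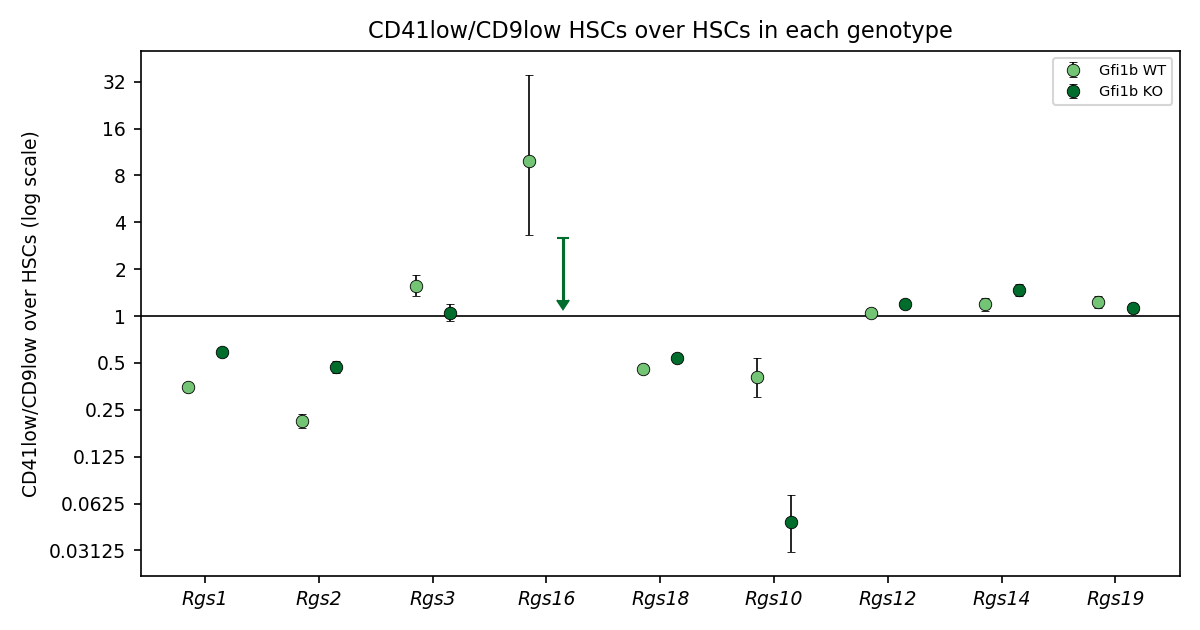
Ratio of CD41low/CD9low HSCs over HSCs for each Rgs member (log axis), separately in WT and KO, with exact 95% counting intervals as bars. Rgs1, Rgs2, Rgs10 and Rgs18 lie below 1 in both genotypes, with Rgs10 lowest in KO (0.0475).

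Rgs2, Rgs1 and Rgs18 are neighbours on chromosome 1, all on the minus strand (GRCm38). Rgs2 lies at chr1:143999338-144004161, Rgs1 at chr1:144242296-144249242 and Rgs18 at chr1:144752683-144775435. Rgs1 is 243.0 kb and Rgs18 753.3 kb from Rgs2, measured between gene starts on the map. Between them lie Rgs13, with 0 counts in every library, and Rgs21, listed only in the CD41low/CD9low tables and at 0 there. These 3 expressed genes did not share 1 ratio, since Rgs1 and Rgs2 were at 0.483 and 0.486 in HSCs and Rgs18 at 0.912. The next counted genes on the side of Rgs2 were Uchl5 (0.733 in HSCs and 0.848 in CD41low/CD9low HSCs), Trove2 (1.10 and 1.10), Glrx2 (1.26 and 1.01) and Cdc73 (1.92 and 1.14). Uchl5 was thus also below 1 in both populations, though within the cutoffs, whereas Trove2, Glrx2 and Cdc73 were above 1. A common change over this region was not tested.

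**Figure D4:**
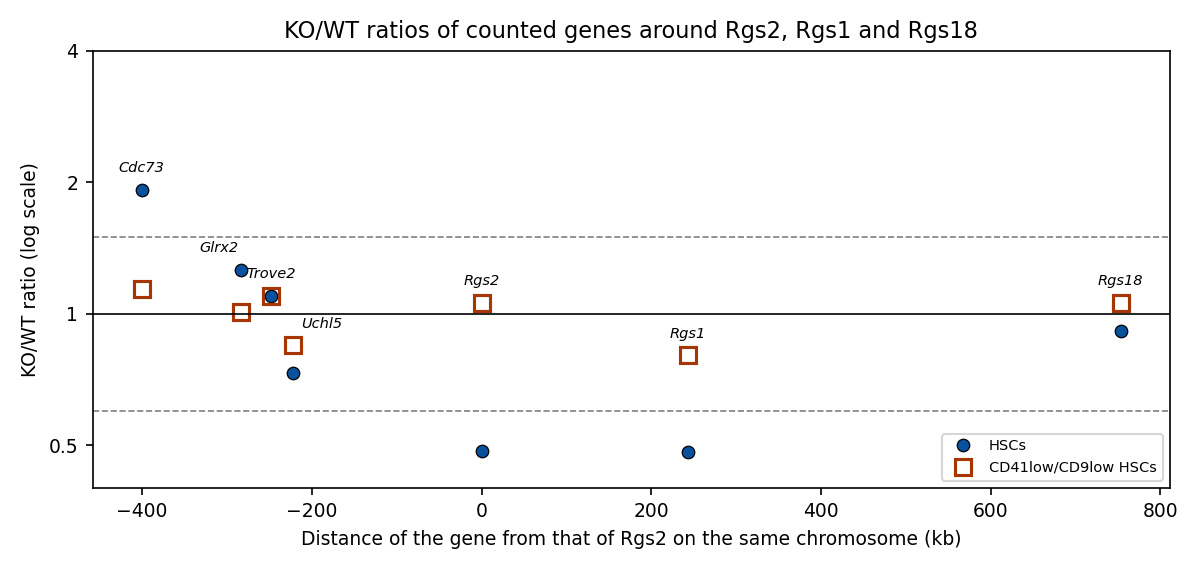
KO/WT ratio (log axis) of protein-coding genes past the count minimum, against their distance in kb from Rgs2, in HSCs (filled circles) and CD41low/CD9low HSCs (open squares), with dashed lines at the cutoffs. In HSCs Rgs2 and Rgs1 lie below the lower cutoff, Rgs18 lies near 1 (0.912) and Cdc73 lies above the upper cutoff (1.92).

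The promoter of Rgs2, the member of the lowered pair that the RefSeq promoter table holds, is shown as 250 bases before its start, chr1:144004150-144004399 (GRCm38.p6, minus strand). Capitals mark TGACG, the core of a cAMP response element, and CCAAT, each on either strand.
Rgs2 promoter: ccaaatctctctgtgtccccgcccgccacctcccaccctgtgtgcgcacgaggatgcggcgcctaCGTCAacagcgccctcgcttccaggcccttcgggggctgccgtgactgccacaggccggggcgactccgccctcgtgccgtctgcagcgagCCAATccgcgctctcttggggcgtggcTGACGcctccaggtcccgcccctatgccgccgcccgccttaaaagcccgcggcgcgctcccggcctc
TGACG occurred 2 times, 185 and 67 bases before the start, and 17.8% of 32851 RefSeq promoters of this length held it. The full TGACGTCA was not in this window and was in 1.55% of promoters. CCAAT occurred once, 94 bases before the start, and was in 33.8% of promoters. The 4 letters AATC, the core of the GFI1B motif, occurred 2 times, once overlapping CCAAT, and were in 69.0% of promoters, whereas the longer AATCA was not in this window and was in 33.7%. The AP-1 motif TGANTCA was not in this window either, and was in 6.75% of promoters. GGGCGG occurred 4 times and was in 32.7% of promoters, and the GC content was 72.4%, against a median of 52.4%. These are matches of letters, both strands were searched, and they do not show binding. RefSeq promoters were found for 6 of the 9 members, and Rgs1, Rgs14 and Rgs18 were not among them.

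The genes whose levels over the 4 libraries were most like those of Rgs1 were Trib1 (distance 0.13), ENSMUSG00000097188 (0.20) and Cdkn3 (0.24), by Euclidean distance between centred log2 normalized counts among 11386 genes. For Rgs2 they were Tmem230 (0.36), Ppp1r15a (0.36) and Fbxo30 (0.44). For Rgs18 they were Ppp1cb, Tent5a and Sh3bgrl (0.06 each). Trib1, for example, had 398.1 normalized counts in WT HSCs, 189.7 in KO HSCs, 147.3 in WT and 124.7 in KO CD41low/CD9low HSCs. Rgs1 had 11339.3, 5432.9, 3964.4 and 3200.0 on the same scale. With 4 libraries, closeness of pattern is a description only.

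Immediate-early genes, the rapidly induced transcription factors and phosphatases, were mostly lower in the KO library of HSCs, as were Rgs1 and Rgs2. Their summed level was 7510 TPM in WT HSCs, 3130 in KO HSCs, 1450 in WT and 1480 in KO CD41low/CD9low HSCs. The library order of the sum was the same as for Rgs2 but not as for Rgs1, which was lower in KO than in WT CD41low/CD9low HSCs. Of 33 tested in HSCs, 27 were down, none was up and 32 were below 1, with a median log2 ratio of -1.52. Of all genes in HSCs, 10.3% were down and 14.1% up. In CD41low/CD9low HSCs, 4 of 28 were down and 2 up, against 12% and 13.5% of all genes, with a median of -0.21. The list was chosen with earlier results of these data known. Fos, a subunit of AP-1, was at 0.240 in HSCs and 0.804 in CD41low/CD9low HSCs, and Nr4a1, a nuclear receptor induced by many stimuli, at 0.184 and 0.355. Klf4 was at 0.254 and 0.537, Klf2 at 0.505 and 0.444, and Btg2, an antiproliferative gene, at 0.589 and 0.466. In the fit to 4 libraries, 15 of 33 were called lower by edgeR and 2, Nr4a1 and Btg2, with filterByExpr, against 1.19% and 0.115% of all genes. The part of whatever moved these genes in the ratios of Rgs1 and Rgs2 was not tested.

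Markers of other cell types also differed between libraries. Their counts past the cutoffs are to be read against the shares of all genes. In HSCs 14.1% of all genes passed the upper cutoff and 10.3% the lower. In CD41low/CD9low HSCs these shares were 13.5% and 12%. Mast cell and basophil markers, whose cells carry receptors coupled to G proteins, summed to 164, 254, 64.7 and 6.57 TPM in the order WT HSCs, KO HSCs, WT and KO CD41low/CD9low HSCs. This is the library order of Rgs10. Of these markers, 2 of 6 were up and 2 down in HSCs, and of 4 in the other pair 1 was up and 3 were down. Prss34, a protease of basophils, had 1295, 2046, 266 and 1 counts, and Mcpt8, another, had 529, 795, 68 and 0. Other markers of the list did not follow this order. Cpa3 had 603, 536, 17 and 65 counts, and Fcer1a (440 and 206 counts in HSCs) and Gzmb (42 and 19) were down in HSCs and at 0 in both CD41low/CD9low libraries. Neutrophil and monocyte markers summed to 1770, 1840, 4250 and 1490 TPM, with 1 of 13 up in HSCs and 11 of 13 down in CD41low/CD9low HSCs, among them S100a9 at 0.261 and Ctsg at 0.0892. None of the 14 was at 0 in any library, although the lineage antibodies used in the sort included Gr1 and CD11b, which mark these cells. The part of these cells in the Rgs10 and Rgs16 ratios was not tested.

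Megakaryocyte and platelet markers, the cells in which Rgs18 is best known, summed to 2520 TPM in WT HSCs, 3660 in KO HSCs, 605 in WT and 758 in KO CD41low/CD9low HSCs. In HSCs 6 of 18 were up and 3 down, against 14.1% and 10.3% of all genes. Of 17 in the other pair 7 were up and 3 down, against 13.5% and 12%. Plek was at 3.07 and 1.76 and Itgb3, an integrin subunit of platelets, at 3.32 and 2.74, whereas Selp was at 0.378 and 0.409, Thbs1 at 0.492 and 0.334, and Tubb1 at 0.208 and 0.272. Gp6 was at 0 in both CD41low/CD9low libraries. Rgs18 thus had ratios of 0.912 and 1.06 beside markers that were up in part and down in part, and its level was lower in CD41low/CD9low HSCs as was the markers' sum. Its fall between the populations was 2.01-fold in the fit, and 16 of the 18 markers were called lower there, against 13.7% of all genes. The marker list includes Itga2b and Cd9, which encode the proteins used in that sort, so that it is not independent of the sort.

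The remaining marker lists were as follows, to be read against the same shares of all genes. Erythroid markers summed to 1630, 1040, 1200 and 846 TPM, with 3 of 10 up and 4 down in HSCs and 1 up and 7 down in CD41low/CD9low HSCs, with Car1 and Ermap at 0 counts in KO there. B cell markers summed to 695, 558, 63.3 and 56.0 TPM, with 3 of 7 down in HSCs and 1 of 2 down in CD41low/CD9low HSCs, and Igkc had 3069, 1595, 2 and 0 counts. T and NK cell markers summed to 145, 210, 44.4 and 106 TPM, with 1 up and 3 down of 7 in HSCs and 1 up of 3 in CD41low/CD9low HSCs, and Trac was at 0 throughout. Endothelial and stromal markers summed to 88.3, 124, 54.0 and 54.1 TPM, with 3 up of 8 in HSCs and 3 down of 7 in CD41low/CD9low HSCs, and Cdh5 was at 0 in both CD41low/CD9low libraries. HSC markers summed to 1590, 1930, 1460 and 1780 TPM. Of these markers, 3 of 15 were up in each population, against 14.1% and 13.5% of all genes. Gata2 (1.98 and 1.95) and Procr (2.20 and 1.52) were up in both. Rgs1 is itself high in lymphocytes, and the part of such cells in its level was not tested.

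Of the 12 other Rgs genes, none exceeded 4.0 TPM in any library. Rgs9 and Rgs11, of the R7 group, were the best counted. Rgs9 had 106, 72, 35 and 19 counts in the library order used above, with KO/WT ratios of 0.838 and 0.362. Rgs11 had 78, 90, 57 and 121 counts, and its ratio was 1.42 in both populations. Rgs6 (1, 5, 0 and 11 counts) and Rgs8 (17, 7, 10 and 0 counts) were near the minimum, Rgs4 had 1 count in KO HSCs, and 7 had no count in any library that listed them. Of the 4 tested in the fit, none was called for genotype by edgeR or DESeq2, and none had an unadjusted edgeR p under 0.05. Among 15 other genes with an RGS domain, such as the receptor kinases, 3 were up in HSCs (Arhgef11 at 1.56, Arhgef12 at 1.58 and Grk1 at 1.80), and none was past a cutoff in CD41low/CD9low HSCs. The share of all genes up in HSCs was 14.1%, and 25.5% were past either cutoff in CD41low/CD9low HSCs. Grk2, the most abundant of them, had 259, 243, 261 and 279 TPM. For genotype, none of the 15 was called by edgeR or DESeq2, and 2 had an unadjusted edgeR p under 0.05. Between the populations edgeR called 2 higher and 1 lower in CD41low/CD9low HSCs, against 9.11% and 13.7% of all genes.

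The substrates and partners of the RGS proteins are the alpha, beta and gamma subunits. For comparison, the upper cutoff was passed by 14.1% of all genes in HSCs and the lower by 10.3%. In CD41low/CD9low HSCs these shares were 13.5% and 12%. Alpha subunits summed to 1090, 1080, 829 and 885 TPM, and 1 of 12 was up and 1 down in HSCs, with 2 of 11 up in CD41low/CD9low HSCs. Gnai2, the main inhibitory alpha subunit of blood cells, had 320, 261, 392 and 389 TPM. For genotype, none of the alpha subunits was called by edgeR or DESeq2, and 1 had an unadjusted edgeR p under 0.05. Between the populations edgeR called 1 higher and 4 lower in CD41low/CD9low HSCs, against 9.11% and 13.7% of all genes. Beta and gamma subunits summed to 687, 665, 637 and 658 TPM, with 1 of 13 up and 2 down in HSCs and 4 of 12 up and 1 down in CD41low/CD9low HSCs. Gnb4 rose in the fit (ratios 2.04 and 1.69, edgeR adjusted p = 4.6e-06, and 0.025 with filterByExpr), and Gng11 fell (0.601 and 0.658, edgeR adjusted p = 0.025, and 0.20 with filterByExpr). Arrestins and GoLoco proteins had none of 6 past a cutoff in either population, with a sum of 319, 313, 263 and 292 TPM and Arrb2 at 94.0, 107, 69.7 and 75.9 TPM.

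Among G-protein-coupled receptors, whose signals RGS proteins end, 11 of 33 were up and 5 down in HSCs, against 14.1% and 10.3% of all genes. In the CD41low/CD9low pair, 5 of 29 were up and 7 down, against 13.5% and 12%. F2r, the thrombin receptor, was up in both and rose in the fit, with 13318 counts in WT and 31134 in KO HSCs (ratio 2.89) and 945 and 3458 in CD41low/CD9low HSCs (ratio 2.44). The edgeR adjusted p of F2r was 1.7e-17, and 0.00091 with filterByExpr. Cnr2, a cannabinoid receptor of leukocytes, was at 0.361 and 0.572, with an edgeR adjusted p = 0.026 and 0.25 with filterByExpr. The nucleotide receptor P2ry2 was at 0.467 and 0.510, without a call in the fit (edgeR adjusted p = 0.22). C3ar1, on 20, 33, 0 and 11 counts, was past the upper cutoff in both populations. In CD41low/CD9low HSCs it passed the count minimum only through KO. It was not called in the fit (edgeR adjusted p = 0.93, and 0.82 with filterByExpr). Cxcr4, which holds HSCs in the marrow, was at 0.706 and 0.704, within the cutoffs (edgeR adjusted p = 0.047, and 0.24 with filterByExpr). P2ry1, another nucleotide receptor, was at 1.37 and 2.23 (edgeR adjusted p = 0.022, and 0.25 with filterByExpr). For genotype, edgeR thus called 2 of the receptors higher (F2r and P2ry1) and 2 lower (Cnr2 and Cxcr4), against 1.62% and 1.19% of all genes. Effectors summed to 1440, 2230, 751 and 754 TPM, with 3 of 16 up and 1 down in HSCs and 1 up and 2 down in CD41low/CD9low HSCs. Rap1b, a small GTPase of integrin activation in platelets, was at 2.05 and 1.06, with an edgeR adjusted p = 0.0084 and 0.37 with filterByExpr. Pik3r5 was at 0.585 and 0.531 (edgeR adjusted p = 0.40).

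**Figure D5:**
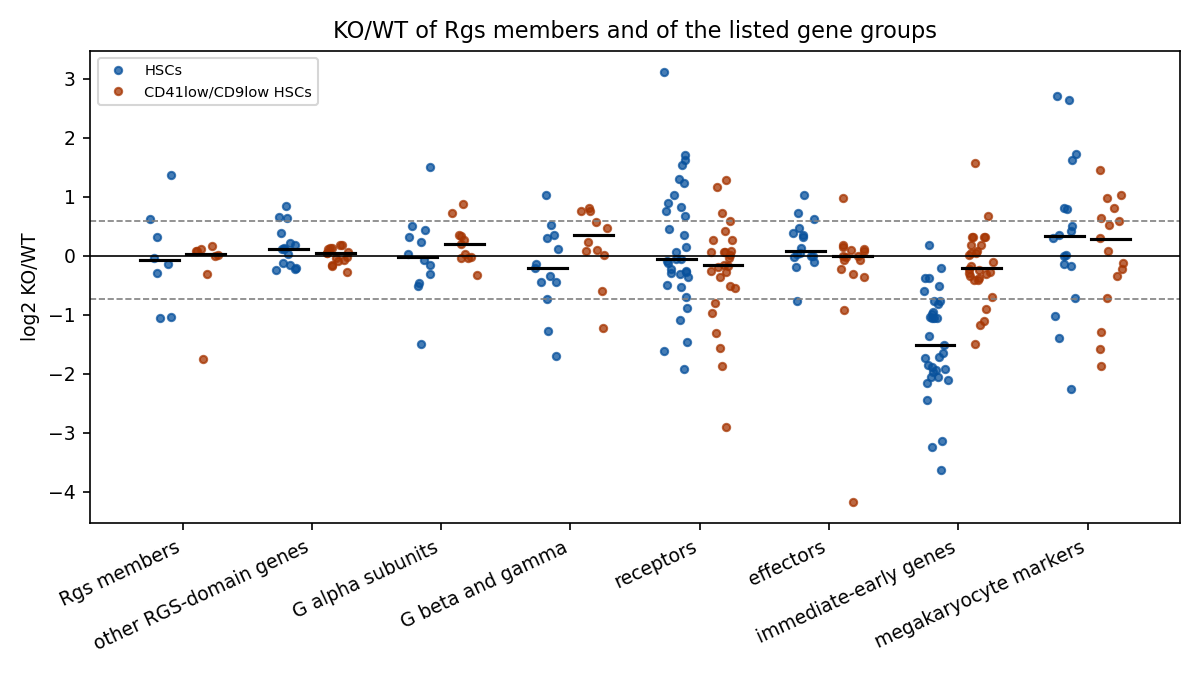
Log2 KO/WT ratio of each gene in the lists around the Rgs members (points) in HSCs and CD41low/CD9low HSCs, with the median of each list as a line and genes without counts in 1 library not drawn. The immediate-early genes have a median of -1.52 in HSCs and -0.21 in CD41low/CD9low HSCs, against -0.08 and 0.02 for the members.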

How the data were processed

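RNA of the 4 libraries (TruSeq Stranded mRNA) was aligned by the authors to mm10 with TopHat2 2.0.10, and SAMtools, HTSeq and DESeq are named in the submitters' processing notes. The deposited values were raw counts per Ensembl gene, without normalization. No strand setting or release of the annotation is given in the sources used here. For HSCs 38293 genes were listed, and 41214 for CD41low/CD9low HSCs. Rows without a gene (no feature, ambiguous, not unique) held 61.1% to 69.5% of counts and were left out. For every 100 counts on genes, 80.0 lay on no feature in WT HSCs, 105.3 in KO HSCs, 62.0 in WT CD41low/CD9low HSCs and 60.1 in the KO library of the latter. Coordinates and lengths came from GENCODE M21, and TPM used the union of exons.

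KO/WT ratios were taken from counts over median-of-ratios size factors of each pair (KO over WT 0.810 and 1.50), with exact Clopper-Pearson intervals. The fit to 4 libraries used edgeR 4.0.16 (TMM factors, quasi-likelihood test), genes that reached 10 counts in 1 library or more, and an adjusted p threshold of 0.05. DESeq2 1.42.0 was an alternative, and the filterByExpr and bias-adjusted fits and the motif AATC were added after seeing the data. Scripts were tested on simulated counts, and R 4.3.3 and Python 3.11.15 were used.

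The members and gene lists were chosen with earlier results of these data known. Named genes were the members, Gfi1b, every other Rgs gene with at least 10 counts, the member of each list with the highest mean TPM and up to 4 past the cutoffs in both populations or called in the fit, and the 3 genes most like Rgs1, Rgs2 and Rgs18 in pattern (Rgs16 was under the minimum of 100 normalized counts). The other list genes given values (Itga2b, Cd9, Mcpt8, Fcer1a, Cpa3, Gzmb, Cxcr4, P2ry1, Arhgef11, Arhgef12, Grk1, Gp6, Trac and Cdh5) and the neighbours on chromosome 1 were chosen after their values were seen. Some genes overlap others in the annotation, namely Rgs3, Rgs12 and Rgs16 an antisense gene and Rgs10 and Rgs12 a gene on their own strand, and their counts are uncertain to that extent. Library titles say Gfi1 and genotype labels Gfi1b, and the latter was used.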

Additional observations from a re-analysis of the deposited data

Results flagged for a closer look

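Of the members, 4 had KO/WT ratios on opposite sides of 1 in the 2 populations, and these differences were not tested, because each ratio rests on 1 library per genotype. For Rgs10 the KO/WT value was 2.59 in HSCs and 0.298 in the CD41low/CD9low pair, a ratio of ratios of 0.115. For Rgs2 it was 0.486 and 1.06, a ratio of ratios of 2.18. Rgs18 went from 0.912 to 1.06 (1.16) and Rgs12 from 0.976 to 1.08 (1.11), and for both the ratios lay within the cutoffs in each population. The counting interval included 1 for Rgs2 (0.936 to 1.20) and Rgs18 (0.997 to 1.12) in CD41low/CD9low HSCs. It also did for Rgs12 in HSCs (0.931 to 1.02), so that opposite sides were not resolved for these 3 members. Over all genes, 56.7% of 14144 were on the same side of 1 in both populations.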

How the results depend on the processing

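The KO/WT direction of the members past a cutoff held under the alternatives that can move a ratio (TMM factors, total counts, size factors over 4 libraries, pseudocount, exon length correction), while filters and cutoffs change only counts of genes. Among the others, ratios near 1 reached it or crossed it for Rgs14 and Rgs3 in CD41low/CD9low HSCs (1.0 and 0.997) and Rgs18 in HSCs (1.0), and no scaling moved the median of all genes by more than 0.06 on the log2 scale. In HSCs 2248 genes were up, and 1431, 4354 and 1187 with at least 50 counts, with at least 1 count and with cutoffs of 2 and 0.5, and 1639 were down, against 792 and 2649 with the first 2 of these. Only 1 member was up with cutoffs of 2 and 0.5, and with the exon length correction, where Rgs3 had 1.34, Rgs10 2.89 and Rgs1 0.449. In CD41low/CD9low HSCs 1998 genes were up, and 982, 3121 and 1264 under the same 3 settings, and 1788 were down, against 702 with at least 50 counts, where only 1 member, Rgs10, was down. In the genotype fit 263 genes were higher and 194 lower, against 70 and 30 with DESeq2, 145 and 95 with RLE factors, 80 and 48 with at least 50 counts, 47 and 17 with filterByExpr, and 92 and 35 with the bias-adjusted fit. The last 3 left 0 members lower by edgeR (Rgs1 adjusted p = 0.086, 0.18 and 0.11), with fewer genes tested in the first 2. DESeq2 gave Rgs1 an adjusted p = 0.049. In the population fit 1481 genes were higher, and 879 with DESeq2, and the 4 members lower were called in each alternative. No paired analysis was possible because each population and genotype had 1 library, other than the fit itself, whose population term sets KO against WT within each population, and no library was left out. Counting error limits Rgs16 and, in CD41low/CD9low HSCs, Rgs10.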
